A study of Mus musculus with 11 samples.

Results

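The genes examined were the subunits and receptors of the glutamate and GABA-A receptor families, taken as all symbols of the form Gria, Grik, Grid or Grin with a number, Grm with 1 digit, and Gabr with a subunit letter and an optional number. The rule found 45 genes of the 48440 in the count table of cultured cells, and the same 45 of the 32285 features of the single-cell libraries. They comprised 4 AMPA, 5 kainate, 7 NMDA and 2 delta subunits, 8 metabotropic glutamate receptors and 19 GABA-A receptor subunits.

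The study asked how loss of Syncrip, an RNA-binding protein of the hnRNP family, alters mouse neural progenitor cells (NPCs) and the embryonic neocortex. RNA-seq covered NPCs from E14.5 embryos, with 3 wild-type (WT) and 3 Syncrip conditional knockout (cKO) cultures, grown with EGF and bFGF from cells dissected at the lateral ventricles. scRNA-seq covered the E14.5 dorsal telencephalon of 1 WT and 1 cKO embryo. The cKO animals were Syncrip fl/fl; Emx1-Cre on a C57BL/6 background, with exons 2 to 4 of Syncrip flanked by loxP sites. The sources used here do not say whether WT animals carried a floxed allele, and do not name the Cre driver again for the cultures. Emx1-Cre is active in progenitors of the dorsal telencephalon and the cells they give rise to, not in the interneurons that enter the cortex from the ganglionic eminences.

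Glutamate opens AMPA, kainate and NMDA receptors, which are tetrameric cation channels, and acts on metabotropic receptors, which signal through G proteins. GABA-A receptors are pentameric chloride channels, most often built of alpha, beta and gamma subunits. In the embryonic cortex these receptors are present before synapses form, GABA tends to depolarise immature cells because their chloride content is high, and glutamate and GABA have been described as acting on progenitor proliferation and neuronal migration.

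AMPA receptor subunits differ at the Q/R site, a codon in the pore loop. Editing of the Gria2 transcript by the deaminase encoded by Adarb1 turns the genomic glutamine codon there into one read as arginine, and receptors that hold edited Gria2 let little calcium through. Since the results below turn on the share of Gria2 among AMPA subunits, 30 coding bases around this codon are shown for the 4 genes, from the GENCODE transcripts on GRCm38, in the direction of the transcript and with the codon in capitals.
Gria1: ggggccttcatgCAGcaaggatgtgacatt
Gria2: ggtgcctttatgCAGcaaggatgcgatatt
Gria3: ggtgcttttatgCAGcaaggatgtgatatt
Gria4: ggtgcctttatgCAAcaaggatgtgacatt
The stretches lie at chr11:57243082-57243111 on the plus strand, chr3:80706896-80706925 on the minus strand, chrX:41610253-41610282 on the plus strand and chr9:4464122-4464151 on the minus strand, in that order. Each lies within 1 coding exon, exon 11 of Gria1, Gria2 and Gria3 and exon 12 of Gria4. Of the 30 bases, Gria1 shares 26 with Gria2, Gria3 shares 28 and Gria4 shares 27. All 4 codons encode glutamine in the genome, and counts per gene do not show whether a transcript was edited.

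The 6 cultures held 16962903 to 22708400 counts. The single-cell libraries held 8214 WT and 9560 cKO cells after filtering, with a median of 11705 and 11012.5 UMIs per cell, and 22 barcodes occurred in both libraries. Syncrip itself was at 77.9, 79.8 and 79.9 CPM (counts scaled to 1000000 per culture or library) in the WT cultures and at 90.3, 88.7 and 81.5 CPM in the cKO cultures, and at 287 and 311 CPM in the WT and cKO embryo. Counts over a whole gene or at its 3′ end do not resolve the deleted exons, so these values check no label. The cultures differed in Y-linked transcripts within genotypes, which were counted 5903 to 9232 times in WT 1, WT 2 and cKO 1 and at most 1 time in the other 3, while Xist, whose span lies within that of the antisense gene Tsix, had no count in any culture. Neither the labels nor the methods say that the cultures came from separate embryos. Cultures with and without Y-linked transcripts are unlikely to share an embryo, but cultures alike in these counts may do so. The p-values therefore measure the spread between these cultures, which may be technical in part.

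In the NPC cultures, receptor genes changed in both directions. Of the 45 genes, 35 passed the filter on low counts and were tested with edgeR over 14432 genes. At an adjusted p below 0.05, 13 of the 35 (37.1%) were higher in cKO and 9 (25.7%) were lower, against 19.7% of all tested genes called higher and 19.8% called lower. The median log2 fold change was 0.16 over the receptor genes tested and 0.0020 over all genes tested. Long genes tended to be higher in the cKO cultures, with a median log2 fold change of -0.11 in the shortest 20% of gene spans and 0.10 in the longest 20%, and most receptor genes are long. With this trend removed, 8 receptor genes were higher and 9 lower, and the genes no longer called included Gabrg3, Grid1, Grik1 and Grik3. By family, 9 of the 17 ionotropic glutamate receptor genes tested were higher and 3 lower, 2 of 7 metabotropic receptor genes were higher and 2 lower, and 2 of 11 GABA-A subunit genes were higher and 4 lower. Of the receptor genes called, 8 were at least 2-fold lower and 1 at least 2-fold higher. The 8 include Grin2a, whose call was lost in 5 alternatives. The share of all tested genes past 2-fold is not given here, so these counts do not set receptor genes apart from other genes. In these bulk samples, fewer cells of a type and less RNA per cell cannot be told apart.

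**Figure D1:**
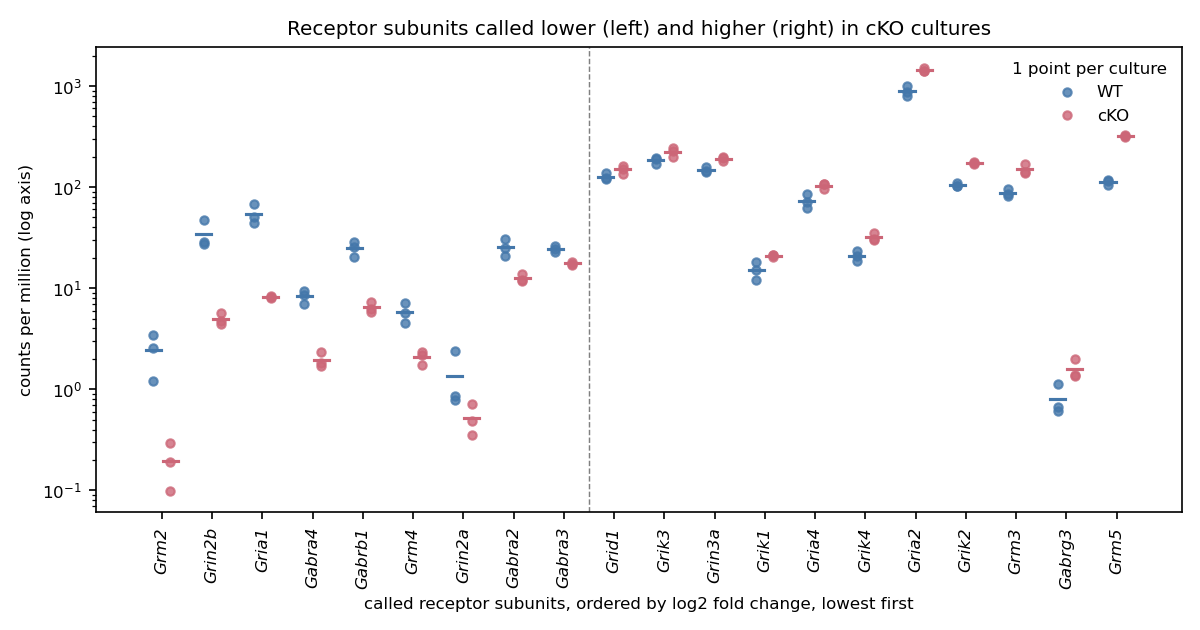
CPM of 20 receptor genes called in the cultures, on a log axis, with 1 point per culture, a bar at the mean of 3 cultures, WT in blue and cKO in red. The 9 genes left of the dashed line were lower in cKO and the 11 right of it higher, from Grm2 at a log2 fold change of -3.63 to Grm5 at 1.51.

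The AMPA subunits diverged. Gria1 was at 50.7, 44.3 and 68.6 CPM in the WT cultures and at 8.14, 7.92 and 8.39 CPM in the cKO cultures. Its log2 fold change was -2.74 ± 0.15 (SE, n = 3 cultures per genotype, edgeR adjusted p = 2.24e-08), and the groups lay far apart. Gria2 was at 993, 799 and 873 CPM in WT and at 1500, 1410 and 1409 CPM in cKO. It rose by 0.70 ± 0.09 on the log2 scale (edgeR adjusted p = 6.33e-05), and the groups did not overlap. Gria4 was at 86.2, 71.4 and 62.7 CPM in WT and at 95.9, 106 and 106 CPM in cKO, and it rose by 0.48 ± 0.10 (edgeR adjusted p = 0.00213). Gria3, which is X-linked, was at 68.6, 55.1 and 65.5 CPM in WT and 72.8, 71.0 and 73.6 CPM in cKO and was not called (log2 fold change 0.20 ± 0.09, edgeR adjusted p = 0.100), although it was without WT 1 (adjusted p = 0.0198). Gria1 and Gria2 thus changed in opposite directions in the same cultures.

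Of the 5 kainate subunits, 4 rose and none fell, against 19.7% higher and 19.8% lower over all tested genes. With the trend over gene span removed, Grik2 and Grik4 were still called, and Grik1 (edgeR adjusted p = 0.0738) and Grik3 (0.201) were not. Grik2 was at 109, 102 and 103 CPM in WT and at 176, 171 and 172 CPM in cKO, a narrow spread within each genotype. Its log2 fold change was 0.73 ± 0.07 (edgeR adjusted p = 3.73e-06). Grik4, a subunit that forms channels only together with others, was at 18.7, 20.9 and 23.2 CPM in WT and 30.01, 35.2 and 30.6 CPM in cKO (log2 fold change 0.61 ± 0.11, edgeR adjusted p = 0.000664). Grik1 was at 18.0, 12.1 and 15.1 CPM in WT and 21.5, 20.2 and 21.4 CPM in cKO, and Grik3 at 171, 190 and 192 CPM in WT and 198, 246 and 225 CPM in cKO. Both were called in the fit over all cultures, at log2 fold changes of 0.48 ± 0.14 and 0.27 ± 0.09 and edgeR adjusted p of 0.0126 and 0.0270. The call of Grik1 was lost without WT 2 (adjusted p = 0.0590), and that of Grik3 without WT 1, WT 2, cKO 2 or cKO 3 (adjusted p from 0.0517 to 0.148). Grik5, the other partner subunit, ranged from 260 to 342 CPM over the 6 cultures and was not called.

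Delta subunits bind glycine or D-serine and cerebellin complexes rather than glutamate. Grid1 was at 124, 137 and 120 CPM in WT and at 163, 152 and 135 CPM in cKO, and the groups overlapped (log2 fold change 0.24 ± 0.09, edgeR adjusted p = 0.0347). Without WT 3, cKO 1 or cKO 2, Grid1 was no longer called (adjusted p from 0.0959 to 0.198).

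Among NMDA subunits, Grin2b, the GluN2 subunit that predominates in the embryonic forebrain, was at 28.6, 27.4 and 47.0 CPM in WT and at 4.71, 4.43 and 5.64 CPM in cKO. It fell by 2.80 on the log2 scale (SE 0.20, edgeR adjusted p = 3.07e-07), a drop close in size to that of Gria1. Grin3a, which forms glycine-gated channels with Grin1, was at 157, 142 and 143 CPM in WT and 182, 200 and 192 CPM in cKO and rose by 0.38 ± 0.08 (edgeR adjusted p = 0.00154). Grin1, the subunit that every NMDA receptor holds, was at 3.83, 4.40 and 5.80 CPM in WT and 6.77, 5.94 and 5.59 CPM in cKO. It was not called (log2 fold change 0.38 ± 0.19 (SE), edgeR adjusted p = 0.136), but was without WT 3 (adjusted p = 0.0405). Of the span of Grin1, 27.5% is shared with the gene Grin1os. How reads in shared stretches were counted is not given, so the level of Grin1 is uncertain. Grin2a was at 0.856, 0.780 and 2.41 CPM in WT and 0.490, 0.3495 and 0.723 CPM in cKO. It was called lower (log2 fold change -1.36 ± 0.49, edgeR adjusted p = 0.0405), and WT 3 lay far above the other WT cultures. The call was lost without WT 3, cKO 1, cKO 2 or cKO 3 (adjusted p from 0.0506 to 0.327). Grin2c and Grin2d were tested and not called, each at or under 8.91 CPM in every culture, though Grin2c was called higher without WT 3 (adjusted p = 0.0155) and Grin2d lower without WT 1 (adjusted p = 0.0464).

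The metabotropic receptors held the gene with the largest rise. Grm5, a group I receptor coupled to phospholipase C, was at 118, 114 and 105 CPM in the WT cultures and at 326, 321 and 313 CPM in the cKO cultures. It rose by 1.51 ± 0.08 on the log2 scale, 2.85-fold (edgeR adjusted p = 1.09e-08), with little spread in either genotype. Grm3, a group II receptor that lowers cyclic AMP and is abundant in glia, was at 95.7, 85.2 and 81.2 CPM in WT and 169, 141 and 138 CPM in cKO (log2 fold change 0.77 ± 0.09, edgeR adjusted p = 2.40e-05). The other group II receptor, Grm2, was at 1.22, 2.56 and 3.48 CPM in WT and 0.0981, 0.291 and 0.193 CPM in cKO. That is 27 to 78 reads per WT culture and 2 to 5 per cKO culture, and it fell by 3.63 on the log2 scale (SE 0.52, edgeR adjusted p = 0.000105). Grm4, of group III, was at 4.55, 5.68 and 7.09 CPM in WT and 2.21, 1.75 and 2.36 CPM in cKO (log2 fold change -1.45 ± 0.23, edgeR adjusted p = 0.000251). Grm7 and Grm8 were tested and not called, and Grm6, the receptor of retinal bipolar cells, did not pass the filter.

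The genes Gabrg1, Gabra2, Gabra4 and Gabrb1 lie side by side on chromosome 5 (GRCm38), and the last 3 of them fell. Gabrg1 spans 70751047 to 70842617, Gabra2 70957597 to 71095849 and Gabra4 71569749 to 71658308, all on the minus strand, and Gabrb1 runs the other way from 71658113 to 72149037. The 5′ ends of Gabra4 and Gabrb1 overlap, by 0.221% of the span of Gabra4. Gabrb1 was at 25.7, 20.1 and 28.5 CPM in WT and at 7.31, 6.23 and 5.79 CPM in cKO. It fell by 1.94 on the log2 scale (SE 0.15, edgeR adjusted p = 5.02e-07). Gabra4, whose protein is best known from extrasynaptic receptors, was at 9.41, 7.02 and 8.57 CPM in WT and 1.81, 1.69 and 2.36 CPM in cKO, and fell by 2.08 (SE 0.21, edgeR adjusted p = 4.43e-06). These neighbours differed by a similar factor, 3.85-fold and 4.24-fold. Gabra2 was at 24.9, 20.8 and 30.9 CPM in WT and 11.8, 11.9 and 13.7 CPM in cKO and fell by 1.03 (SE 0.14, edgeR adjusted p = 7.68e-05). Gabrg1, at the other end of the cluster, was at 157, 116 and 106 CPM in WT and 119, 110 and 119 CPM in cKO and was not called (log2 fold change -0.12 ± 0.12, edgeR adjusted p = 0.423).

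Of the other GABA-A subunits, the X-linked Gabra3 was at 26.4, 24.5 and 22.7 CPM in WT and 16.97, 17.5 and 18.2 CPM in cKO and fell by 0.48 (SE 0.10, edgeR adjusted p = 0.00249). Gabrg3, a gamma subunit, was at 1.13, 0.613 and 0.669 CPM in WT and 2.01, 1.40 and 1.35 CPM in cKO. It was called higher (log2 fold change 0.97 ± 0.35, edgeR adjusted p = 0.0428), and the groups did not overlap. The call was lost when WT 2, WT 3, cKO 1, cKO 2 or cKO 3 was left out (edgeR adjusted p from 0.0660 to 0.189). Gabrb2, Gabrq and Gabrr2 were tested and not called, at 1.21 to 8.12 CPM. Gabra5, Gabra6, Gabrp and Grin3b were among the 10 genes that were not tested, and Gabra6 and Gabrp had no count in any culture. Of the span of Gabra5, 90.5% is shared with other genes of the table, and how the authors counted reads in shared stretches is not given, so its low counts are uncertain.

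Receptor partners also moved both ways. Their lists are short and were not tested against the 19.7% higher and 19.8% lower of all tested genes. The counts below therefore do not set the partners apart from other genes. Of 21 AMPA and kainate auxiliary proteins tested, 5 were higher and 7 lower (median log2 fold change -0.10). The rises of at least 2-fold were in Nptx2, a secreted pentraxin that clusters AMPA receptors (log2 fold change 2.16), and Neto1, a kainate and NMDA receptor partner (1.28), and the falls were in Cacng2, the AMPA receptor trafficking protein stargazin (-2.48), and Cnih2 (-1.03). Of 18 glutamate receptor scaffolds, 4 were higher and 2 lower, with Grip1 at 1.12, its relative Grip2 at -1.80 and Dlg2 at -1.65. Of 10 GABA-A scaffolds and partners tested, 1 was higher and 4 lower, the only change of at least 2-fold being in Iqsec3, a gephyrin-binding protein of inhibitory synapses (-1.15). Of 5 GABA-B genes, 2 were higher and 1 lower, with Kctd16 at 1.96, Gabbr2, a GABA-B receptor subunit, at 1.08 and Kctd12 at -1.05. Kctd16 had only 3 to 14 reads per WT culture and 23 to 39 per cKO culture. Of the span of Kctd12, 72.5% is shared with other genes of the table. Of 12 tested genes for transport and synthesis of glutamate and GABA, 2 were higher and 5 lower. Among them, the vesicular glutamate transporter Slc17a8 was at -2.17, from 27 to 32 reads per WT culture and 5 to 7 per cKO culture. Of 5 chloride transporters 1 was higher, Slc12a7, and neither Slc12a2, which loads cells with chloride, nor Slc12a5, which extrudes it, was called. Of 3 RNA editing enzymes 1 was higher, Adarb1, the editor of the Gria2 Q/R site, at 33.9 ± 3.92 CPM (SD, n = 3) in WT and 47.4 ± 3.45 CPM in cKO (log2 fold change 0.48, edgeR adjusted p = 0.00259).

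Cell type markers moved with genotype in the same cultures. Of all genes tested, 19.7% were higher and 19.8% lower. Of 12 neuronal markers tested, 9 were lower and none higher, and the summed level of the list ran from 3093 to 3321 CPM for WT cultures and from 2746 to 2853 CPM for cKO cultures. Stmn2 was at 15.1 CPM in the WT and 0.152 CPM in the cKO cultures. Of 9 astrocyte markers tested, 7 were lower and 1 higher (5770 to 5998 CPM in WT, 3547 to 3921 CPM in cKO). Of 10 oligodendrocyte lineage markers tested, 3 were higher and 4 lower (4599 to 5002 CPM in WT, 3615 to 4223 CPM in cKO). Of 7 dorsal pallium markers, 1 was higher and 2 lower (264 to 289 CPM in WT, 223 to 245 CPM in cKO). Neurog2 was higher (log2 fold change 0.70), and Pax6 (-0.33) and Neurod6 (-4.14) were lower. Neurod6, a gene of cortical excitatory neurons, was at 16.3 CPM in the WT and 0.904 CPM in the cKO cultures. The regional gene Emx1, at 0.652 and 1.25 CPM, was not called (edgeR adjusted p = 0.104), and its groups overlapped. Of 5 ventral telencephalon markers, 2 were lower (67.6 to 69.6 CPM in WT, 42.5 to 48.1 CPM in cKO). Tubb3, Nefl, Gfap, Gpr17, Dlx1, Dlx6 and Nkx2-1 had no count in any culture, but the spans of the first 6 lie wholly within, and 31.6% of that of Nkx2-1 within, stretches shared with other genes of the table, so these zeros cannot be read as absent expression. The part of these marker shifts in the receptor results was not tested.

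In the E14.5 cortex, 17774 cells fell into 27 clusters, formed without the receptor genes. By the markers chosen for each type, 19 clusters were placed in 13 classes, called "-like", and 8 clusters with 5985 cells were left unnamed. The 45 genes had 513912 UMIs in all, 29 of them with at least 500 UMIs. The other 16 had 1593 UMIs together, at most 337 each, and are not described by class. With 1 embryo per genotype there is no test between genotypes or classes. Levels are CPM of the UMIs summed over the cells of a class, and intervals are 95% and cover counting error only. Each UMI marks a captured molecule near a 3′ end, but priming inside long introns can add UMIs. A level is therefore best compared between classes for the same gene. Shares of a subunit within its family set UMIs of different genes side by side, and their intervals do not cover this priming. Red blood cell-like cells, which have no use for these receptors, were taken as a rough guide to free RNA. Their medians were 3569.5 UMIs in the WT and 3099.5 in the cKO library. How their levels carry over to cells with more UMIs was not tested. In red blood cell-like cells, Gria2 reached 57.9 CPM in the WT and 102 CPM in the cKO library, and Grik2 66.8 and 85.8 CPM. The other receptor genes named here stayed at or under 28.6 CPM there.

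**Figure D2:**
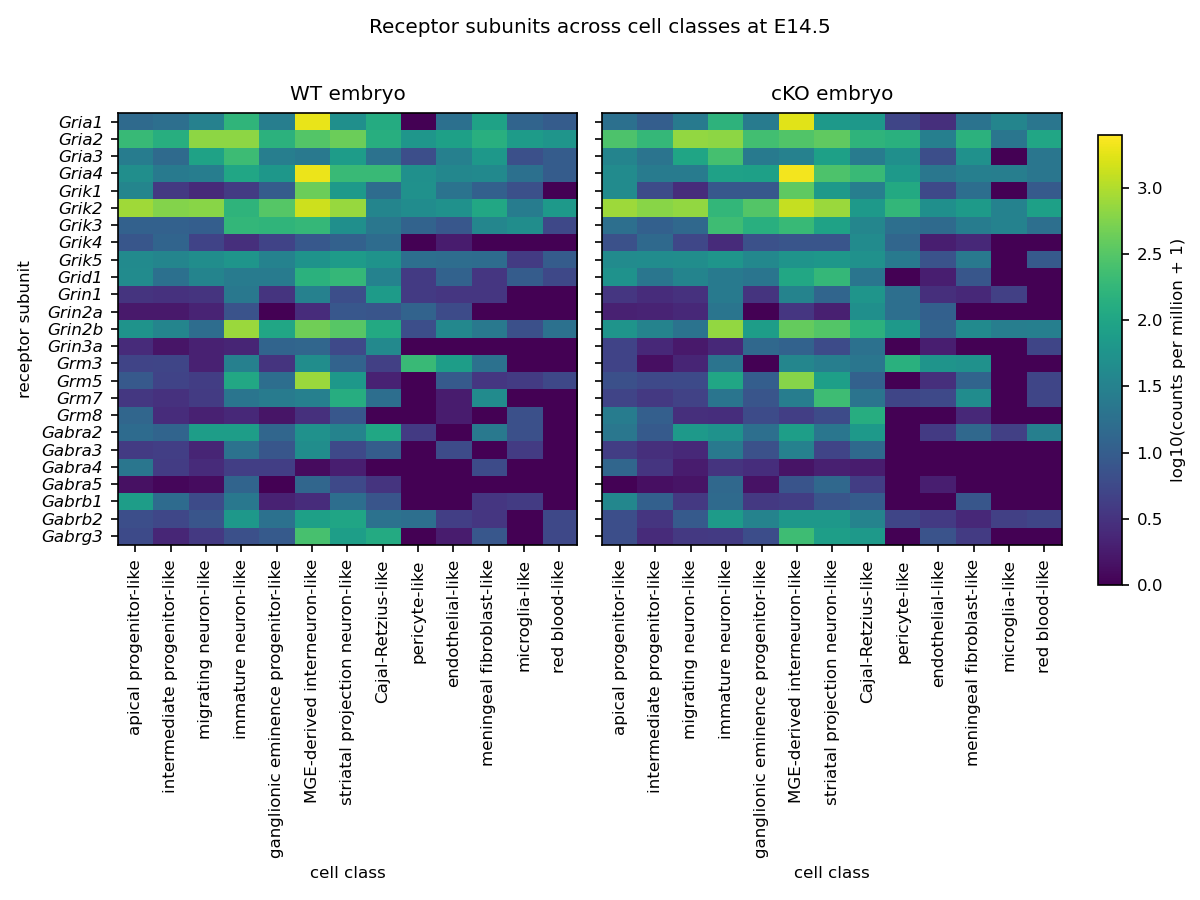
Heat map of 25 receptor genes with at least 500 UMIs (rows) in 13 cell classes (columns), WT embryo left and cKO embryo right, coloured by log10 of CPM plus 1. MGE-derived interneuron-like cells have the brightest columns, with Gria1 at 1939 and Gria4 at 1966 CPM in the WT embryo, and the non-neural classes at the right are dark for most genes.

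MGE-derived interneuron-like cells, marked by Lhx6, had the highest summed receptor level of any class. It was 8809 CPM over the 45 genes in the WT and 8194 CPM in the cKO embryo, against 1001 to 3632 CPM in the other named neural classes. Gria1 was at 1939 and 1740 CPM there and Gria4 at 1966 and 2157 CPM in the WT and cKO embryo, and the next highest named class reached 168 CPM for Gria1 and 285 CPM for Gria4. Gria2 was at 308 and 301 CPM in these cells, below its 665 and 714 CPM in migrating neuron-like cells and 659 and 661 CPM in immature neuron-like cells. The share of Gria2 among AMPA subunit UMIs was therefore 7.28% (95% exact binomial interval 6.90 to 7.67%) in WT and 7.13% (6.81 to 7.46%) in cKO MGE-like cells. It was 82.1% and 83.0% in migrating neuron-like, 57.7% and 57.3% in immature neuron-like, 68.9% and 75.4% in apical progenitor-like and 71.2% and 77.3% in intermediate progenitor-like cells. Cajal-Retzius-like cells, the early Reln-producing neurons of the marginal zone, lay between, at 28.6% and 36.1%, with Gria4 at 41.8% and 44.4%. These are shares of UMIs, to which priming inside introns may add unequally between the genes, so they do not give the subunit composition of receptors. Gria3 was highest in immature neuron-like cells, at 213 and 248 CPM.

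**Figure D3:**
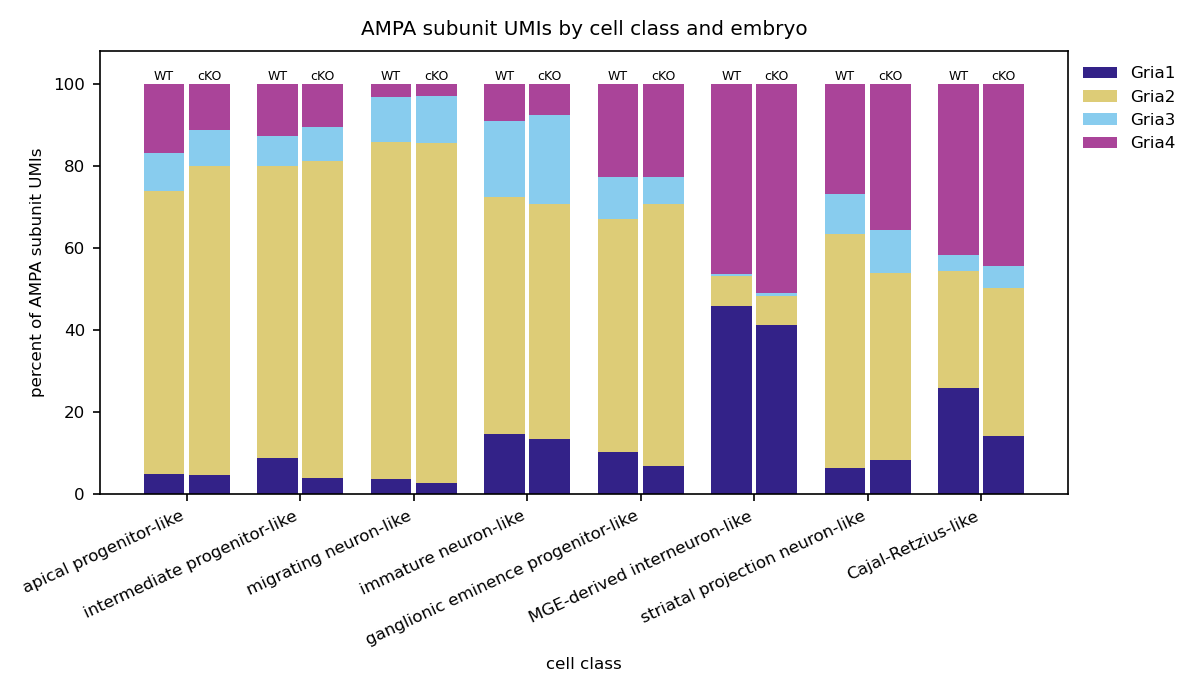
Stacked bars of the percent of AMPA subunit UMIs from each of Gria1 to Gria4 in 8 cell classes, with the WT embryo left and the cKO embryo right in each pair. Gria2 takes 82.1% in WT migrating neuron-like cells and 7.28% in WT MGE-derived interneuron-like cells, where Gria1 and Gria4 take 45.8% and 46.4%.

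Kainate subunits divided by class too. Grik2 was already high in progenitors, at 827 CPM in the WT and 786 CPM in the cKO embryo in apical progenitor-like cells, 594 and 618 CPM in intermediate progenitor-like and 617 and 698 CPM in migrating neuron-like cells. It was lower in immature neuron-like cells, at 160 and 178 CPM, and highest in MGE-like cells, at 1397 and 1263 CPM. Grik1 was at 432 and 356 CPM in MGE-like cells, 34.2 and 42.3 CPM in apical progenitor-like cells and at most 7.60 CPM in intermediate progenitor-like, migrating and immature neuron-like cells of either embryo. Grik3 was at 175 and 223 CPM in immature neuron-like and 183 and 196 CPM in MGE-like cells, against 10.4 and 16.2 CPM in apical progenitor-like cells. Grik4 stayed at or under 14.8 CPM in the named classes apart from cKO Cajal-Retzius-like cells (43.1 CPM), and Grik5 varied little, between 31.3 and 73.1 CPM in the neural classes. The delta gene Grid1 was highest in striatal projection neuron-like cells (186 and 185 CPM).

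NMDA subunits differed in the classes where they were highest. Grin2b was at 775 and 709 CPM in immature neuron-like and 458 and 388 CPM in MGE-like cells, but at 15.5 and 18.8 CPM in migrating neuron-like cells, below the 55.5 and 56.8 CPM of apical progenitor-like cells and no higher than the 17.8 and 28.6 CPM of red blood cell-like cells. It supplied 99.1% of GluN2 subunit UMIs in WT and 97.1% in cKO immature neuron-like cells. Grin1 was highest in Cajal-Retzius-like cells (71.6 and 59.0 CPM), followed by MGE-like (29.9 and 32.6 CPM) and immature neuron-like cells (22.0 and 23.8 CPM), and stood at 2.27 and 2.48 CPM in apical progenitor-like cells. Grin3a was at 38.7 and 17.5 CPM in Cajal-Retzius-like cells and at or under 13.1 CPM in the other named classes.

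Each metabotropic receptor had its own distribution. Grm5 was at 763 and 611 CPM in MGE-like and 108.1 and 103 CPM in immature neuron-like cells, and at 7.78 and 5.78 CPM in apical progenitor-like cells. Grm3 was highest outside the neural cells, at 200 and 143 CPM in pericyte-like cells (27 WT and 18 cKO cells) and 78.1 and 57.0 CPM in endothelial-like cells. Grm7 was at 132 and 219 CPM in striatal projection neuron-like cells. Grm8 was at 12.2 and 25.7 CPM in apical progenitor-like cells, above its level in migrating (1.07 and 1.88 CPM) and immature neuron-like cells (1.48 and 1.75 CPM).

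For GABA-A receptors, Gabrb1 and Gabra4 were highest in apical progenitor-like cells. Gabrb1 was at 78.2 CPM (73.3 to 83.3) in WT apical progenitor-like cells, 14.7 CPM in intermediate progenitor-like, 5.03 CPM in migrating neuron-like and 21.7 CPM in immature neuron-like cells. Gabrb1 supplied 73.9% (71.5 to 76.3%) of beta subunit UMIs in WT apical progenitor-like cells and 4.86% (4.03 to 5.82%) in WT migrating neuron-like cells. Gabra4 followed its neighbour Gabrb1, with 20.5 CPM in WT apical progenitor-like cells and at most 3.34 CPM in the other WT neural classes. Gabra2 was at 77.9 and 66.7 CPM in migrating neuron-like cells and 14.3 and 21.3 CPM in apical progenitor-like cells, and reached 241 and 228 CPM in an unnamed cluster of 926 cells in which it was among the leading genes. Gabrg3 was at 258 and 218 CPM in MGE-like cells and Gabrb2 at 84.3 and 64.8 CPM there, with Gabrb2 at 100.3 and 64.7 CPM in the striatal class. Gabra3 was highest in MGE-like cells (45.9 and 30.5 CPM), and Gabra5 was at 11.3 and 13.0 CPM in immature neuron-like cells.

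Between the embryos, differences of at least 0.5 on the log2 scale were read for genes with at least 50 UMIs in a class. In apical progenitor-like cells, 6 of the 27 receptor genes with enough UMIs were higher in the cKO embryo and 3 lower, against 4.35% higher and 2.85% lower of 12917 genes. In migrating neuron-like cells the counts were 3 and 2 of 26, against 3.54% and 2.96%, and in immature neuron-like cells 2 and 5 of 30, against 3.86% and 2.81%. In MGE-like cells, which Emx1-Cre does not target, they were 1 and 3 of 25, against 4.03% and 2.44%. Genotype and the embryo itself cannot be told apart in these ratios.

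The pair of neighbours on chromosome 5 was lower in the cKO embryo as it was in the cKO cultures. In apical progenitor-like cells, Gabrb1 was at 78.2 CPM (73.3 to 83.3) in the WT and 36.9 CPM (34.2 to 39.8) in the cKO embryo, from 965 and 671 UMIs, a log2 ratio of -1.08 (-1.23 to -0.94). Gabra4 was at 20.5 CPM (18.0 to 23.2) and 12.3 CPM (10.7 to 14.0), a log2 ratio of -0.74 (-1.01 to -0.47). The ratios were alike in the clusters without and with leading mitotic genes, at -1.18 and -1.01 for Gabrb1 and -0.83 and -0.70 for Gabra4, and the third apical cluster, of low UMI count, held at most 6 UMIs of each per embryo. Gabrb1 was also lower in intermediate progenitor-like (log2 ratio -0.56, -1.01 to -0.11), migrating neuron-like (-0.91, -1.41 to -0.43) and immature neuron-like cells (-0.61, -0.84 to -0.39), and Gabra4 in migrating (-0.97, -1.89 to -0.11) and immature neuron-like cells (-0.60, -1.20 to -0.02). With finer clustering the ratio of Gabrb1 in migrating neuron-like cells was 0.10, and with coarser clustering that of Gabra4 in immature neuron-like cells was 0.16. The share of Gabrb1 among beta subunit UMIs of apical progenitor-like cells was 52.7% (49.9 to 55.5%) in the cKO embryo.

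**Figure D4:**
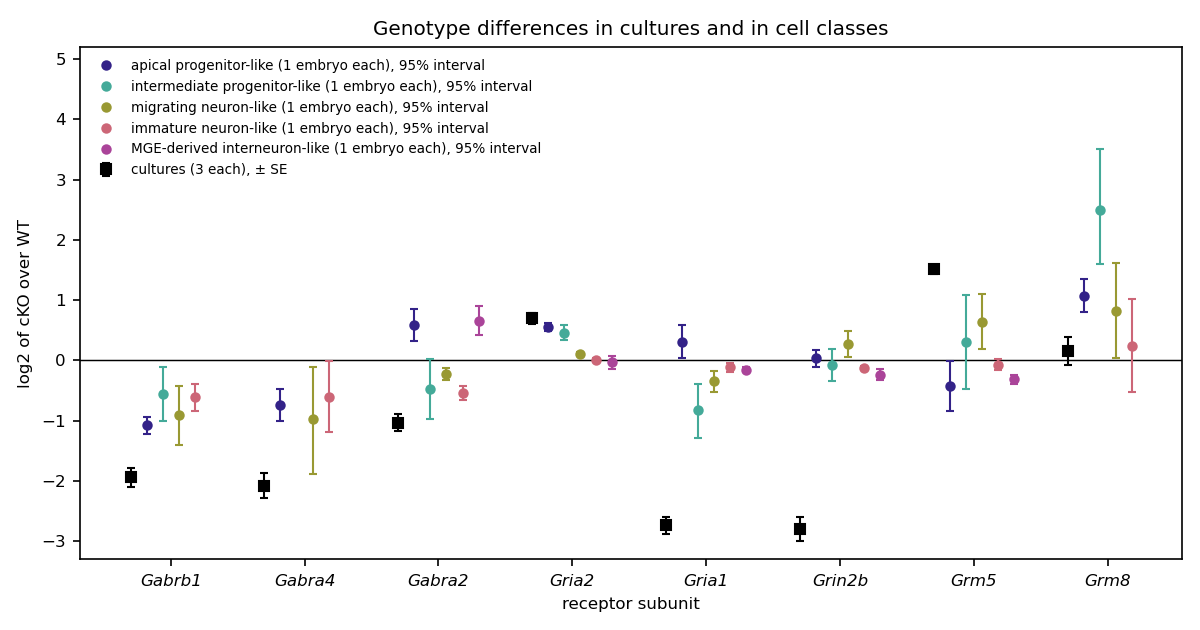
Log2 of cKO over WT for 8 receptor genes, as squares with SE for the cultures (3 per genotype) and as points with 95% counting intervals for 5 cell classes (1 embryo per genotype, at least 50 UMIs). Gabrb1 and Gabra4 lie below 0 in the cultures and in every class drawn, whereas Gria1 at -2.74 and Grin2b at -2.80 in the cultures lie at 0.30 and 0.03 in apical progenitor-like cells.

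Gria2 was higher in the cKO embryo in apical progenitor-like cells, at 193 CPM (186 to 201) in the WT and 284 CPM (276 to 292) in the cKO embryo, a log2 ratio of 0.56 (0.48 to 0.63). It was at 0.46 (0.34 to 0.58) in intermediate progenitor-like, 0.10 in migrating and 0.01 in immature neuron-like cells. With coarser clustering the ratio in apical progenitor-like cells was 0.31. The level of Gria2 in red blood cell-like cells was also higher in the cKO library (57.9 and 102 CPM, from 13 and 25 UMIs), and its part in the progenitor values was not tested. Of the genes that fell most in the cultures, Gria1 was at 13.8 and 17.01 CPM in apical progenitor-like cells (log2 ratio 0.30, 0.03 to 0.58) and Grin2b at 55.5 and 56.8 CPM (0.03, -0.11 to 0.18). Gria1 was lower in intermediate progenitor-like cells, at 16.5 and 9.29 CPM (log2 ratio -0.83, -1.28 to -0.39), which became -0.22 without cells called doublets. Grm5, which rose in the cultures, was at 7.78 and 5.78 CPM in apical progenitor-like cells (log2 ratio -0.43, -0.84 to -0.01) and higher in migrating neuron-like cells (0.64, 0.18 to 1.10).

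Grm8, a group III receptor, was higher in the cKO embryo in 3 classes of the dorsal lineage. Its log2 ratio was 1.07 (0.80 to 1.34) in apical progenitor-like cells, 2.50 (1.61 to 3.51) in intermediate progenitor-like cells, from 12 and 74 UMIs, and 0.81 (0.04 to 1.62) in migrating neuron-like cells. In Cajal-Retzius-like cells it had no UMI in the WT embryo, where 3 counts would be 3.41 CPM. It was at 130 CPM in the cKO embryo, 38.1-fold the level of 3 WT counts. This ratio is no lower limit, as it leaves out the error of the cKO value, whose UMIs lay in few cells. Grm8 was counted there in 0 of 64 WT cells. This allows a share of cells with a UMI of up to 4.69% (3 of 64, for counting error only). It sets no limit on cells that express Grm8. No red blood cell-like cell of either library had a UMI of Grm8. In the cKO embryo, Grm8 was counted in 19 of 112 Cajal-Retzius-like cells (16.96%, 10.5 to 25.2%), with as many as 52 UMIs in 1 cell. Grin2a showed a like pattern in these cells, at 6.82 and 47.8 CPM, in 3 WT cells against 18 cKO cells. WT Cajal-Retzius-like cells had a median of 14871.5 UMIs and cKO cells 9685.5. In the cultures Grm8 ran from 5.35 to 7.29 CPM in WT cultures, from 5.25 to 10.3 CPM in cKO cultures and was not called.

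Other differences were seen as well, some of them in more than 1 class. In apical progenitor-like cells, Gabra2 (14.3 and 21.3 CPM, log2 ratio 0.58), Grik3 (10.4 and 16.2 CPM, 0.65), Grin3a (1.62 and 3.85 CPM, 1.25) and Grm7 (2.59 and 3.96 CPM, 0.61, -0.01 to 1.26) were higher. Without cells called doublets the ratios of Gabra2 and Grm7 were 0.22 and 1.31. In intermediate progenitor-like cells Grik1 was higher (2.61 and 5.05 CPM, log2 ratio 0.95). In immature neuron-like cells, Grin2a, the GluN2 subunit that gains on Grin2b after birth, was at 6.46 CPM (5.35 to 7.74) in the WT and 20.2 CPM (18.3 to 22.3) in the cKO embryo, a log2 ratio of 1.65 (1.35 to 1.96), and Grik1 at 2.96 and 7.60 CPM (1.36, 0.91 to 1.84). Lower there were Gabrg3 (5.86 and 2.75 CPM, -1.09), Grm3 (29.4 and 19.5 CPM, -0.59) and Gabra2 (77.4 and 53.0 CPM, -0.55), whose ratio was 0.23 with coarser and 0.39 with finer clustering. In MGE-like cells, Gabra2 was higher (51.0 and 80.3 CPM, 0.66) and Gabra5 (12.1 and 6.62 CPM, -0.87) and Gabra3 (45.9 and 30.5 CPM, -0.59) were lower. The cKO embryo also held more cells of an unnamed cluster led by Tafa1 and Tfap2d (473 against 128 in WT), in which Grik1 was at 0.695 CPM in the WT and 22.6 CPM in the cKO embryo from 1 and 112 UMIs, a log2 ratio of 5.03 (2.52 to 10.34).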

How the data were processed

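The authors deposited raw counts per gene for the 6 cultures, after alignment of paired reads to mm10 with HISAT2. No source used here gives the counting program or strand setting. They also deposited filtered UMI counts per cell, written by Cell Ranger 7.0.0 per the file headers. Whether intronic reads were counted is not given. LACE-seq was not analysed here.

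Culture counts were tested in R 4.3.3 with edgeR 4.0.16 (filterByExpr, TMM, robust quasi-likelihood test, Benjamini-Hochberg adjustment over all genes at 0.05), in place of the DESeq2 of the study. The code was tested on simulated data. Barcodes under 200 genes or over 10% mitochondrial UMIs were dropped, and the cells left were clustered with Seurat 5.3.0 (2000 variable genes, 30 components, resolution 0.8) without receptor, Y-linked, Xist or Tsix genes. Cells called doublets by Scrublet in scanpy 1.11.5 (749, 4.21%) were kept, and left out in an alternative. Names of clusters came from marker lists, by limits set after the clusters were seen. Ratios between embryos used summed UMIs of at least 50 per gene and class, at a log2 ratio past 0.5, with exact 95% intervals.

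Receptor genes called in the cultures, the AMPA subunits and Grin1 were named with every value, genes with at least 500 UMIs by class, and pathway genes when called at an absolute log2 fold change of at least 1. Other genes named (Grik5, Grin2c, Grin2d, Gabrg1, Gabrb2, Gabrq, Gabrr2, Grm7, Grm8, the chloride transporters, Adarb1 and single markers) complete counts or were chosen after their values were seen. Some receptor genes enter the counts but are not reported here by name. The members and lists were chosen with earlier results of these data known. Alternatives covered scaling, filter, tool, sex, gene span, replicate block, each culture left out, clustering resolution, doublets, cell filter and weighting of cells.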

Additional observations from a re-analysis of the deposited data

Results flagged for a closer look

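Gabra2 differed in opposite directions between the embryos in different classes. The log2 ratio of cKO over WT was 0.58 in apical progenitor-like and 0.66 in MGE-derived interneuron-like cells, and -0.55 in immature neuron-like cells, all past 0.5 from 1 embryo per genotype. The difference between classes was not tested. In immature neuron-like cells the ratio was 0.23 with coarser and 0.39 with finer clustering, and in apical progenitor-like cells it was 0.22 without cells called doublets.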

How the results depend on the processing

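Of the 22 receptor genes called in the cultures, 16 kept direction and call under all 15 alternatives. With the trend over gene span removed, 8 were called higher (main 13). Leaving out 1 culture gave 9 to 13 receptor genes higher and 8 to 10 lower, and 2068 to 3070 of all genes higher and 2040 to 3275 lower. Among other calls lost were those of Gabrg3 with DESeq2 (adjusted p = 0.0696), Grin2a with limma-voom (0.0800) and Grik3 with sex, read from Y-linked counts, as a covariate (0.0551), which gained Grm7 (0.02004). Grin2a did not pass the filter of at least 1 CPM in 3 libraries and has no value there. Same-numbered cultures correlated at 0.26, -0.05 and 0.12, and the other pairs of a WT and a cKO culture at -0.34 to 0.29. These few values cannot settle whether the numbers pair the cultures. With a replicate block, 14 receptor genes were higher and 9 lower, and Gria3 was gained (0.0420). Of 29 embryo ratios past 0.5, 4 values reversed over 6 alternatives, and others moved outside their counting interval without changing sign, 5 without doublets, 5 with resolution 0.4 and 2 with cells weighted equally. With resolution 0.4, Gabra2 was at 0.23 and Gabra4 at 0.16 in immature neuron-like cells. With resolution 1.2, Gabra2 was at 0.39 there and Gabrb1 at 0.10 in migrating neuron-like cells. Leaving the low-UMI cluster out of the apical class, chosen after seeing the data, changed none of the 29. Classes under 50 cells and genes under 50 UMIs are limited by depth, and 1 embryo per genotype gives no biological error.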

Other observations

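Among the unnamed clusters, the one led by Adarb2, Six3 and Sp9, genes of the ganglionic eminences and their interneurons, held 323 WT and 526 cKO cells. Grm5 was at 38.4 CPM in the WT and 89.8 CPM in the cKO embryo there (log2 ratio 1.23, 0.91 to 1.56), and Grik1 at 12.9 and 30.6 CPM (1.24, 0.69 to 1.83). Gria1, at 183 and 236 CPM, and Grik3, at 289 and 345 CPM, differed less. In the cluster led by Tafa1 and Tfap2d, Grm5 was at 25.01 and 66.9 CPM (log2 ratio 1.42, 0.92 to 1.96) and Grin2b at 224 and 425 CPM (0.93, 0.76 to 1.10). In the cluster in which Gabra2 was a leading gene, Grin2b was at 95.6 and 158 CPM (0.73, 0.59 to 0.87), and Gria2 at 947 and 914 CPM. These clusters and genes were chosen after their values were seen.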
